A study of Rattus norvegicus with 10 samples.

Results

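Calcineurin and the calcium/calmodulin-dependent protein kinases (CaM kinases) read the calcium signal of neurons, and the mRNA of 9 of their genes was examined in the hippocampus of rats fed chow or a powdered diet. The genes were Ppp3ca, Ppp3cb and Ppp3r1 of calcineurin, Camk2a, Camk2b, Camk2d and Camk2g of CaM kinase II (CaMKII), Camk4 of CaM kinase IV, and Calm2 of calmodulin. Every probe set annotated with exactly 1 of these symbols was taken, which gave 23 of 31042 probe sets. No probe set annotated with several symbols carried any of them. The C-group held 5 male Wistar rats given solid chow and the P-group 5 given powdered chow, for 8 days from 3 weeks of age, so that all were labeled as 4 weeks old. All 10 rats had first been kept on the powdered feed for a short acclimatization, and no treatment other than the diet was labeled. The arrays are named C1 to C5 and P1 to P5 after the group and replicate number.

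Calmodulin is a small calcium sensor that wraps around its target enzymes once calcium is bound. Calcineurin is a protein phosphatase made of a catalytic and a calcium-binding regulatory subunit, and it is known for synaptic depression and for activating NFAT transcription factors. CaMKII, one of the most abundant proteins of excitatory synapses, stays active after a calcium pulse by phosphorylating itself and is known for synaptic potentiation. CaM kinase IV acts mainly in the nucleus, where it phosphorylates CREB.

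The values were log2 expression values, which the authors made with qFARMS, a factor model that keeps the variation of a probe set over the arrays only where its probes vary together. This left 2904 of the 31042 probe sets (9.36%) with a standard deviation (SD) above 0.01 over the 10 rats, called variable here. Of the hippocampal neuron markers, Neurod6 had a mean log2 value of 10.52. Slc17a7, a vesicular glutamate transporter, had one of 10.69 at 1 probe set and 8.89 at another. Probe sets of the other such markers lay between 6.22 (Prox1) and 11.77 (Nptx1), and the values carry no detection calls. The mean of 11 variable choroid plexus markers, of 14 listed, was high in 4 rats of both groups, at 9.35 in C1, 8.92 in C5, 8.88 in P3 and 8.77 in C2, was 7.97 in P5 and lay between 6.47 and 6.90 in the other 5. P2 stood apart in the mean of 7 variable pineal markers, of 9 listed, with 8.66 against 6.06 to 6.16 in the other 9 rats. In such tissue RNA, fewer cells of a type and less mRNA per cell cannot be told apart.

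Of the 23 probe sets, 8 were variable (34.8%), and these belonged to Ppp3ca, Camk2a, Camk2b, Camk2d and Camk2g. Ppp3cb, Ppp3r1, Camk4 and Calm2 had no variable probe set, so that hardly any difference between rats is left in their values. The SD of the 15 nearly constant probe sets lay between 0.0001 and 0.0066, and their group differences were at most 0.0031 log2 units in size. The border ran between Camk2g at an SD of 0.0128 on the upper side and, on the lower side, Camk2a 1388187_at at 0.0066 and one of Camk4 at 0.0054. Ppp3ca had probe sets on both sides, as did Camk2a, Camk2d and Camk2g.

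**Figure D1:**
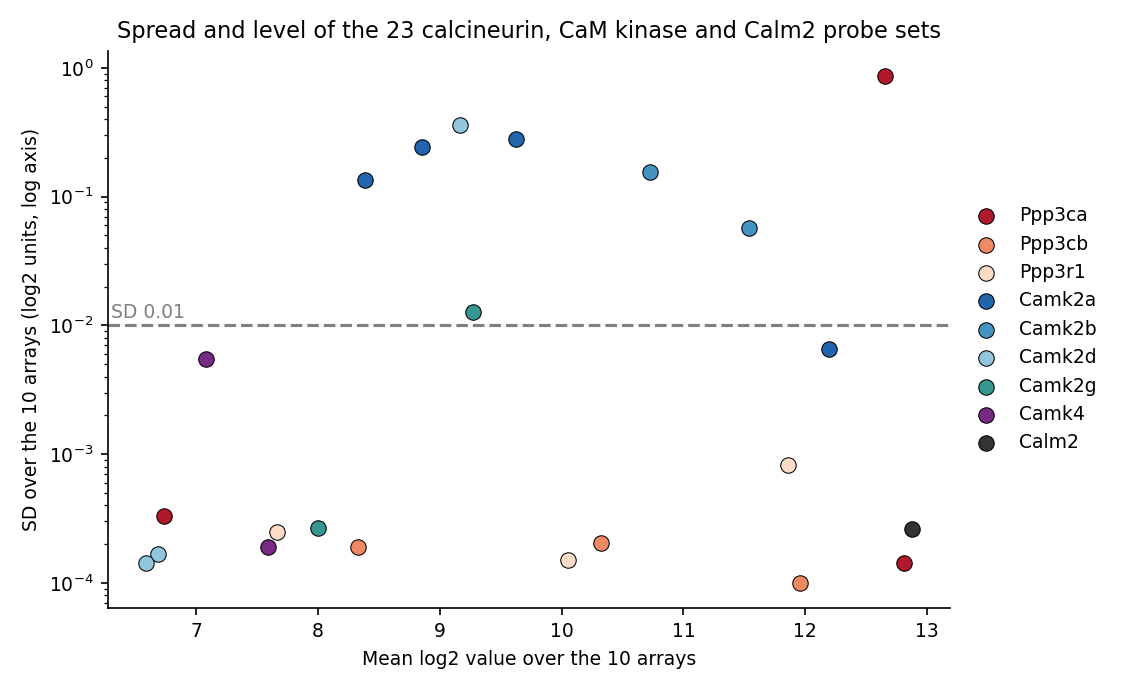
Each point is one of the 23 probe sets, with its mean log2 value over the 10 arrays on the horizontal axis and its SD over the arrays on the vertical log axis, colored by gene. The dashed line marks an SD of 0.01, with 8 probe sets above and 15 below it. Ppp3ca lies at 0.86 with one probe set and below 0.001 with the others.

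Ppp3ca, the alpha catalytic subunit of calcineurin, was low in a single rat. Its probe set 1368277_at read 10.22, 12.78, 13.07, 13.05 and 12.81 in C1 to C5. In P1 to P5 it read 13.03, 12.98, 12.87, 12.94 and 12.82. C1 thus lay 2.56 log2 units under the next lowest rat, whereas the other 9 rats of both groups spanned 0.29 units, with an SD of 0.11. Its SD over the 10 rats, 0.86, was exceeded by 25 of the 31042 probe sets. The group means were 12.39 ± 1.22 (SD, n = 5) for chow and 12.93 ± 0.08 (SD, n = 5) for powder, so that C-group minus P-group was -0.54 log2 units with a standard error of 0.53.

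The other probe sets of Ppp3ca did not show this step. Probe set 1373479_at, with a mean of 12.81, spanned 0.0005 units over the 10 rats and lay in C1 only 0.00017 units under the next lowest rat. Probe set 1398506_at, with a mean of 6.74, spanned 0.0011 units over the 10 rats. C1 was the lowest of the 10 rats in all 3 probe sets of Ppp3ca, but the sizes in the 2 nearly constant ones cannot be read as amounts of mRNA. C1 also had the highest means of the choroid plexus, meningeal, astrocyte, microglial and interneuron markers, for example 8.48 for 3 variable microglial ones against at most 8.16 in any other rat. Of the 4 variable astrocyte markers, however, Gfap was lowest in C1 (10.71, against 11.43 to 11.59 in the other rats). The interneuron mean rested on 2 variable markers, of 5 listed. C1 had the lowest mean of 5 variable hippocampal excitatory neuron markers, of 8 listed (8.82, against 8.86 to 9.24 in the other C-group rats and 9.04 to 9.27 in the P-group). Within that list Wfs1, Neurod1 and Prox1 were lowest in C1, whereas Fibcd1 was highest there (8.33) and Neurod6 read 10.63, above its mean of 10.52. The part of these in the Ppp3ca value was not tested.

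The probe sets closest in pattern to Ppp3ca 1368277_at over the 10 arrays were those of Rab5if, Rbfox1, which encodes a neuronal splicing factor, and Sbno1, with Pearson's r of 0.99 for each. Spearman's rho was 0.78, 0.61 and 0.78, and without C1 Pearson's r was 0.67, 0.51 and 0.71. In C1 they read 8.15, 8.36 and 7.22, and in the other rats 10.07 to 10.36, 10.90 to 11.26 and 8.73 to 9.002. Of the 2904 variable probe sets, 323 had an r above 0.9 with Ppp3ca, and 1 of these kept an r above 0.9 without C1. A gap of more than 2 log2 units between C1 and the next lowest rat occurred in 5 of the 31042 probe sets, those of Ppp3ca, Rbfox1, Emc10, Mfsd4a and 1 without a symbol in the annotation used. No probe set lay that far above the other rats in C1.

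**Figure D2:**
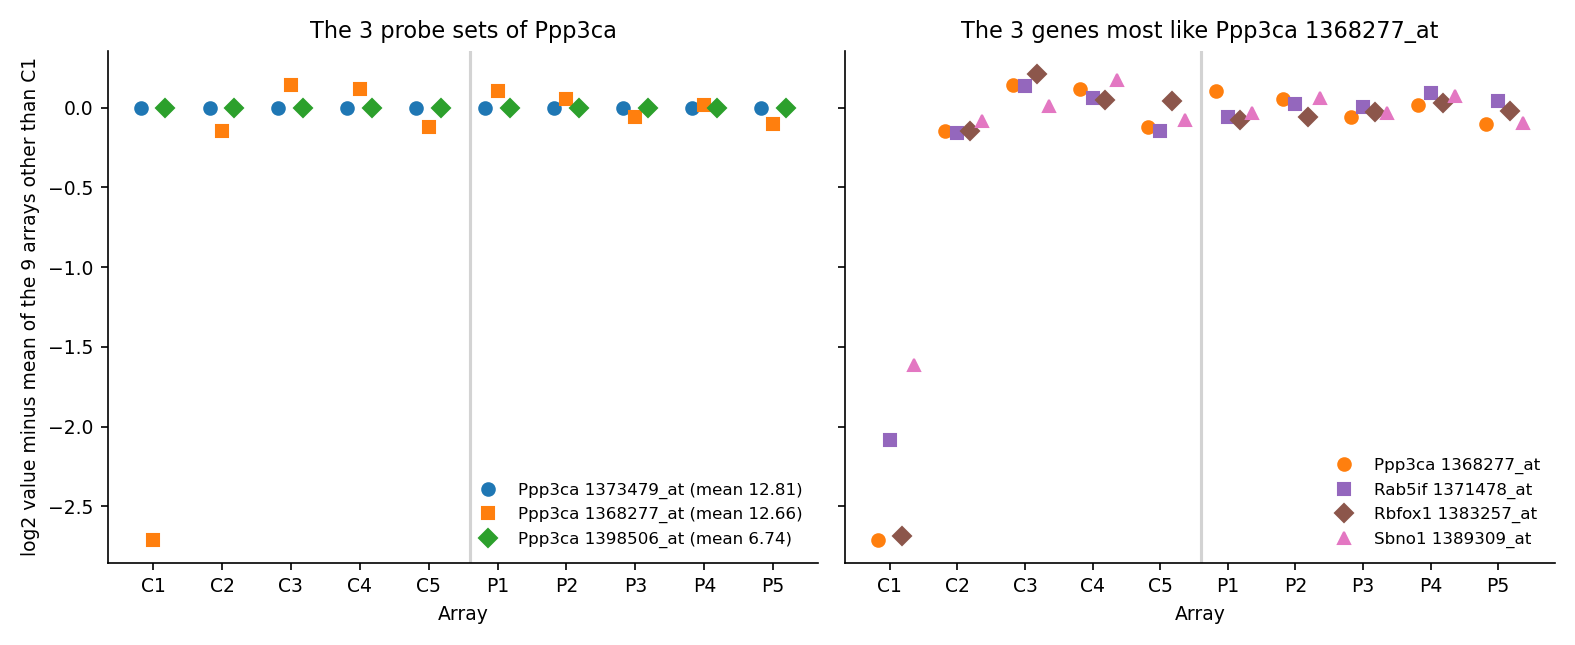
Log2 values of each array (horizontal axis) minus the mean of the 9 arrays other than C1 (vertical axis), for the 3 probe sets of Ppp3ca on the left and for Ppp3ca 1368277_at with its 3 most similar genes on the right. The C-group stands left and the P-group right of the grey line. C1 alone is far below 0, in 1 of the 3 Ppp3ca probe sets and in Rab5if, Rbfox1 and Sbno1.

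Ppp3cb, the beta catalytic subunit, and Ppp3r1, the regulatory subunit, were nearly constant in each of their 3 probe sets. Ppp3cb had means of 11.96, 10.33 and 8.33, and its differences were at most 0.0001 log2 units in size. Ppp3r1 had means of 11.86, 10.05 and 7.66. Probe set 1372982_at of Ppp3r1, the one with the widest spread, ranged from 11.8544 in C1 to 11.8569 in P4, a span of 0.0025 units. Accordingly, 1 of the 9 calcineurin probe sets varied.

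Camk2a encodes the alpha subunit of CaMKII, the predominant one of forebrain excitatory neurons. It had 3 variable probe sets, more than any other of the CaM kinase genes. Probe set 1381637_at read 9.50, 9.54, 9.95, 9.62 and 9.87 in C1 to C5. The values in P1 to P5 were 9.60, 8.93, 9.76, 9.72 and 9.73. P2 was the only rat below 9.5, and the other 4 P-group rats lay within the range of the C-group. The means were 9.70 ± 0.20 (SD, n = 5) and 9.55 ± 0.35 (SD, n = 5), which differed by 0.15 (standard error 0.17), and without P2 the difference was -0.0052.

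Probe set 1389824_at of Camk2a read 8.60, 8.81, 9.22, 9.05 and 8.83 in C1 to C5. P1 to P5 read 8.92, 8.37, 9.03, 8.93 and 8.77. P2 was again the lowest and C1 the second lowest, as in 1381637_at, and C3 was the highest in both. The difference was 0.10 log2 units with a standard error of 0.15, and -0.01 without P2. P2 was also the rat with high pineal markers, and the part of pineal tissue in these values was not tested.

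Probe set 1368935_at of Camk2a had another order. It read 8.31, 8.19, 8.59, 8.60 and 8.35 in C1 to C5. In the P-group it read 8.29, 8.34, 8.41, 8.50 and 8.29. Here C2 was lowest, C4 and C3 were highest and P2 was in the middle, with a difference of 0.04 (standard error 0.09). Over the 10 arrays 1381637_at and 1389824_at had a Pearson's r of 0.83 (rho 0.67), which was 0.62 without P2, and 1368935_at had an r of 0.34 and 0.62 with these 2 probe sets (rho 0.49 and 0.70). The remaining probe set, 1388187_at, ranged only from 12.19 in C1 to 12.20 in C3, an SD of 0.0066. The genes closest in pattern to 1381637_at were Htr4, a serotonin receptor (r = 0.92, rho = 0.79), Sphkap (r = 0.90, rho = 0.84) and Crlf3 (r = 0.86, rho = 0.82). All 3 had their lowest value in P2.

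Camk2b encodes the beta subunit of CaMKII, which binds actin. Its probe set 1375575_at read 11.43, 11.498, 11.60, 11.62 and 11.57 in C1 to C5. In P1 to P5 it read 11.49, 11.54, 11.51, 11.59 and 11.53. The P-group lay inside the range of the C-group, and the difference was 0.01 with a standard error of 0.04. This probe set was low in C1, P1 and C2 and high in C4, C3 and P4, and the mean of the 5 excitatory neuron markers, at 8.82, 9.04 and 8.86 in the former and 9.24, 9.23 and 9.27 in the latter, parted the same rats. Neurod6 and Fibcd1 of that list did not read lowest in C1, and the part of neuron content in these values was not tested.

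The other probe set of Camk2b, 1398251_a_at, did not follow the first one, with a Pearson's r of -0.20 between them over the 10 arrays (rho -0.26, and r = 0.11 without C1). It read 10.91, 10.70, 10.84, 10.84 and 10.52 in C1 to C5. The values in P1 to P5 were 10.88, 10.72, 10.72, 10.68 and 10.44. C1 was the highest here and the lowest in 1375575_at, and C5 and P5 were low. The difference was 0.07 with a standard error of 0.10. By its suffix, this probe set matches several transcripts of the gene. Nos1ap, an adaptor of neuronal nitric oxide synthase, had the closest pattern (r = 0.97, rho = 0.87), before Ctxnd1 and Gnao1, a G protein alpha subunit (r = 0.94 for each, rho 0.84 and 0.88).

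**Figure D3:**
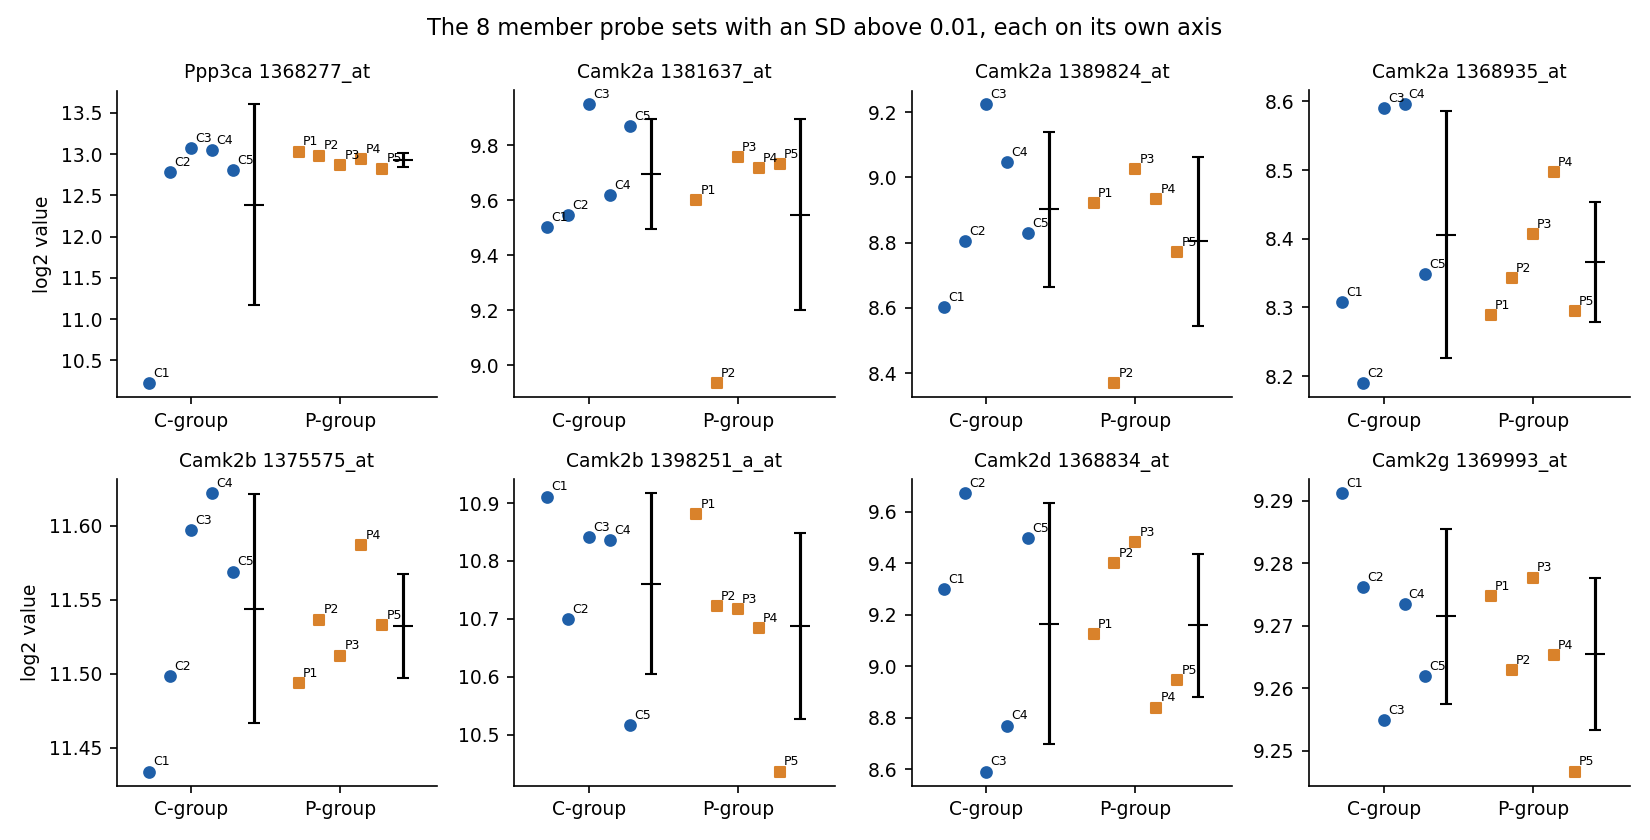
Log2 values of the 8 variable probe sets in each rat, each panel with its own vertical axis. Blue circles are C1 to C5, orange squares are P1 to P5, and black bars are the group mean with its SD (n = 5). The groups overlap in every panel, C1 stands apart for Ppp3ca, and P2 is the lowest rat in 2 of the Camk2a panels.

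Camk2d encodes the delta subunit of CaMKII, which is best known from the heart and is also made in brain. Its variable probe set 1368834_at read 9.30, 9.67, 8.59, 8.77 and 9.50 in C1 to C5. P1 to P5 read 9.12, 9.40, 9.48, 8.84 and 8.95. Both groups thus held high rats, C2, C5, P3 and P2, and low ones, C3, C4, P4 and P5, and the means were nearly equal at 9.17 ± 0.47 and 9.16 ± 0.28 (SD, n = 5 each). The difference was 0.01 log2 units with a standard error of 0.24.

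The 4 rats with the highest Camk2d were also those with the highest mean of 3 variable thalamic markers, of 5 listed, at 8.36, 8.51, 8.56 and 8.54 in C2, C5, P3 and P2 and from 8.14 to 8.30 in the others. Of these markers, however, Tcf7l2 was highest in C4 (8.92), where Camk2d was second lowest. The 5 rats with the highest Camk2d were also the 5 with the highest mean of 6 variable meningeal markers, of 8 listed, at 8.67 in C1, 8.63 in C5, 8.61 in P3, 8.58 in C2 and 8.17 in P2, against 7.72 to 8.11 in the others. Among the meningeal markers, however, Dcn was lower in P2 (7.83) than in any rat but P5, and read 8.16 in P4, where Camk2d was low. The part of neighboring tissue in the Camk2d values was not tested. The closest patterns were those of Tenm3, a teneurin adhesion protein (r = 0.94, rho = 0.92), Grb10 (r = 0.89, rho = 0.87) and Gadl1 (r = 0.88, rho = 0.89). Among all pairs of the 8 variable probe sets, the most negative Pearson's r over the 10 arrays was that of Camk2d with Camk2a 1368935_at (-0.77, rho -0.59), and both share the rats and the normalization. The other probe sets of Camk2d had means of 6.69 and 6.59 and were nearly constant.

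**Figure D4:**
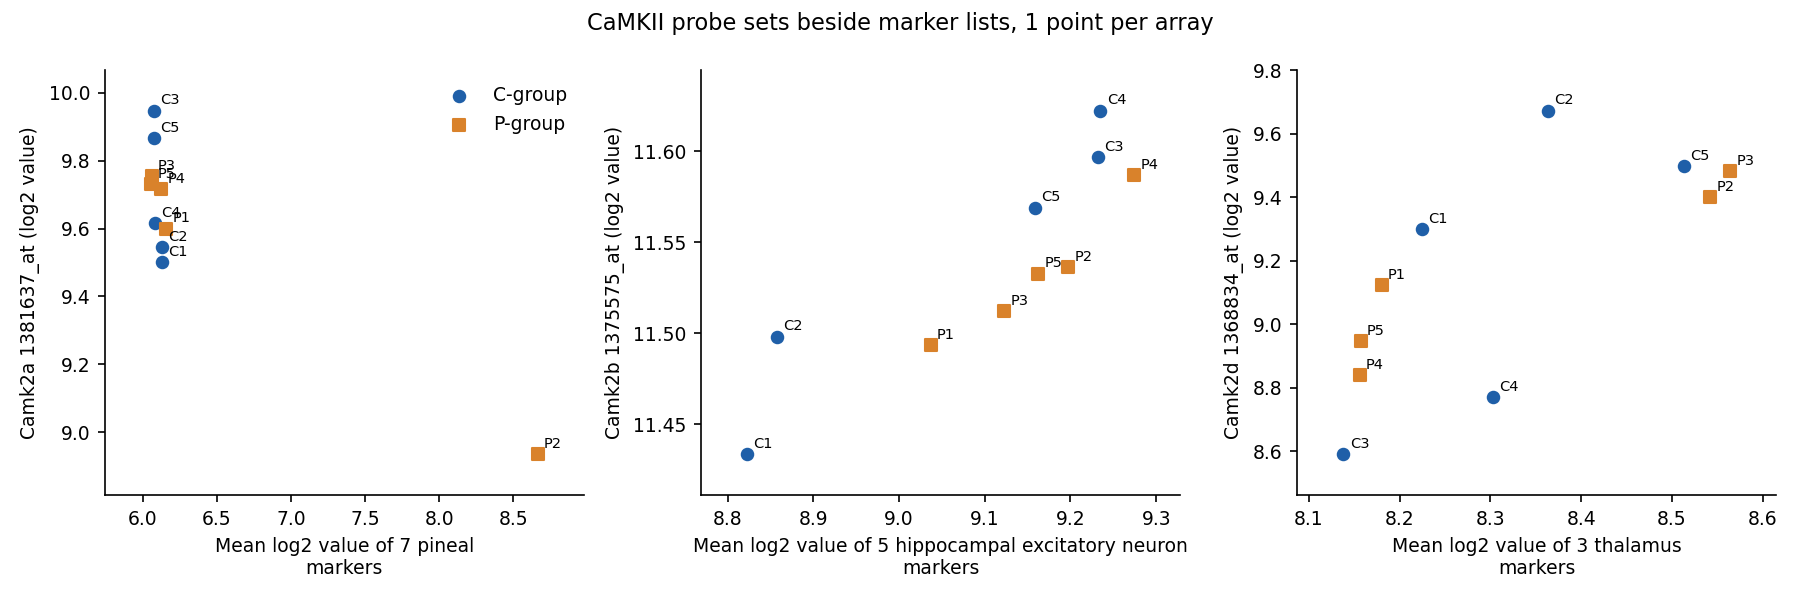
Log2 values of a Camk2a, a Camk2b and a Camk2d probe set (vertical axes) against the mean log2 value of the variable markers of the pineal gland, of hippocampal excitatory neurons and of the thalamus (horizontal axes), with 1 point per array. Camk2a 1381637_at and Camk2d 1368834_at are those with the largest SD of their gene, and Camk2b 1375575_at is the one with the highest mean. The more variable Camk2b 1398251_a_at, which was highest in C1 (10.91), is not shown. P2 alone is far to the right and lowest for Camk2a, C1 and C2 are at the lower left for Camk2b, and C5, P3 and P2 are at the upper right for Camk2d.

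Camk2g, the gamma subunit of CaMKII, which carries calmodulin to the nucleus in some neurons, hardly varied. Probe set 1369993_at read 9.29, 9.28, 9.25, 9.27 and 9.26 in C1 to C5. In the P-group it read 9.27, 9.26, 9.28, 9.27 and 9.25. The difference was 0.006 with a standard error of 0.008, and its closest patterns were those of Flywch1, Tmem91 and Map7d2 (r = 0.97, 0.96 and 0.94, rho = 0.95, 0.95 and 0.88). The other probe set had a mean of 8.00 and an SD of 0.0003. Camk4 had means of 7.59 and 7.08, and the latter probe set ranged from 7.07 in C1 to 7.09 in C3. Calm2 had 1 probe set, with a mean of 12.88 and values from 12.8754 in C1 to 12.8763.

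The small variation left in the nearly constant probe sets had an order over the rats. C1 held the lowest of the 10 values in 9 of the 15, among them Calm2, both probe sets of Camk4 and 2 of the 3 of Ppp3r1. Over all nearly constant probe sets of the array, C1 was the lowest in 19.5%. With the variable ones, C1 was the lowest in 11 of the 23 probe sets (47.8%) and the highest in 3, whereas over all 31042 probe sets it was the lowest in 19.7% and the highest in 41.0%. C3 was the highest in 8 of the 23, against 5.84% of all probe sets. These counts describe single arrays, probe sets of a gene are not independent, and no test was made.

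The comparison of the groups addressed whether chewing solid food altered these mRNAs. Rank products also called markers, among them all 11 variable choroid plexus markers higher in the C-group (mean 8.12, and 7.40 in the P-group). It called 5 of 8 measured meningeal, 3 of 6 astrocyte and 1 of 4 interneuron markers higher. Of 8 measured pineal and 8 hippocampal excitatory neuron markers, 5 and 1 were called lower. Pineal markers were high in P2 alone (mean 8.66, against 6.06 to 6.16 in the other rats). Of all variable probe sets, 21.35% were called higher and 4.44% lower. The part of these markers in the results was not tested. No probe set of the 9 genes passed limma, which weighs a difference against the spread between rats, at an adjusted p under 0.05 over all 31042 probe sets (lowest adjusted p = 0.927), and 0% of all probe sets did. At an unadjusted p under 0.05 there were also 0 of the 23, against 2.95% of all probe sets. Rank products, the method named in the study's methods, called 1 of the 23 lower in the C-group, Ppp3ca 1368277_at (false discovery rate, FDR, 0.034), against 0.416% of all probe sets, and 0 higher, against 2.0%. This method ranks probe sets by the difference between each pair of rats, with no allowance for how much a probe set varies within a group. The study itself named Ppp3ca from these arrays, so that the call is not independent evidence. All calls of rank products were among the variable probe sets, which were 8 of the 23 (34.8%) but 9.36% of all. Of the 8, 1 was called lower and 0 higher, against 4.44% and 21.35% of all variable probe sets. The C-group and P-group values overlapped in all 23 probe sets, but the share over all probe sets was not computed, so this sets the 23 apart from no others.

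The Ppp3ca call rested on C1. Without C1 the difference was -0.00315 log2 units (standard error 0.08, FDR 0.689), and C1 was the only rat whose removal took the difference away. The call was also lost without C2 (difference -0.64, FDR 0.0607) or without any single rat of the P-group (difference from -0.57 to -0.52, FDR from 0.0802 to 0.115), although the difference was about as large. These losses were not particular to Ppp3ca. Over all probe sets, lower calls fell from 129 to between 10 and 82 without a P-group rat. They numbered 112 to 221 without a C-group rat, with 112 for C2. Without C3, C4 or C5 the difference was -0.72, -0.71 and -0.65, and the call was made. The 95% intervals of the differences in the C-group from the P-group, from limma, were -1.75 to 0.66 for Ppp3ca 1368277_at, -0.53 to 0.55 for Camk2d 1368834_at and -0.25 to 0.54 for Camk2a 1381637_at, so that changes of these sizes could not have been told from none with 5 rats in each group. They were narrower for Camk2b 1375575_at, from -0.07 to 0.10. The median difference of the 8 variable probe sets was 0.03 and that of all variable probe sets 0.07.

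**Figure D5:**
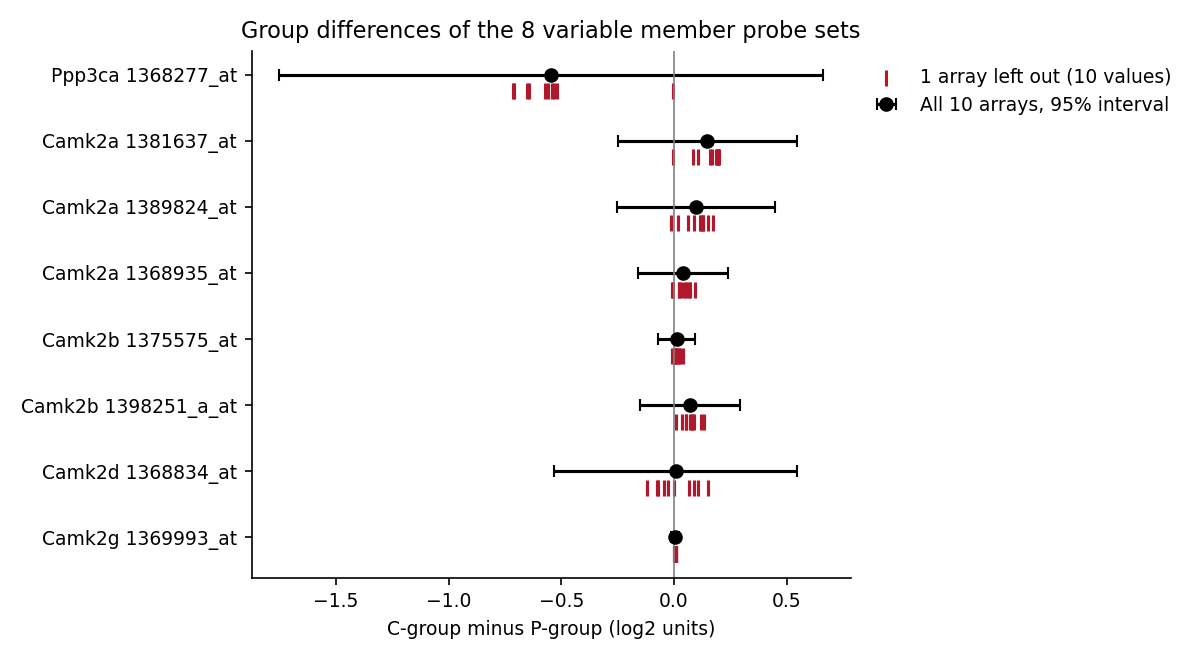
C-group minus P-group difference of each variable probe set in log2 units on the horizontal axis. Black points are the limma estimates from all 10 arrays with 95% intervals, and red ticks are the 10 values with 1 array left out. Every interval includes 0, and the Ppp3ca tick at 0 is the value without C1.

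Other genes of calcium/calmodulin signaling were taken from 6 lists of 83 genes, of which 72 were measured by 131 probe sets. Of these, 24 genes had a variable probe set, no gene passed limma, and rank products called 4 genes higher and 2 lower in the C-group, each by 1 probe set (3.05% and 1.53% of the 131 probe sets, against 2.0% and 0.416% of all probe sets). Of the 131, 22.1% were variable, against 9.36% of all, and all calls fell on variable probe sets. Of the 29 variable ones on the lists, 4 were called higher and 2 lower, against 21.35% and 4.44% of all variable probe sets. The median difference was 0.04 over the variable probe sets of the lists. Values given for a list gene are those of 1 probe set, and its other probe sets are not described. No gene was called on the lists of calcineurin subunits and regulators (10 measured genes), calcineurin targets (14), calmodulins and calmodulin-binding buffers (11) or other calmodulin-regulated enzymes (10). On these lists the largest differences were 0.03 for the calcium release channel gene Itpr1 and -0.03 for the anchoring protein gene Akap5, which were the only regulators that varied, 0.15 for Ppp1r1b, which encodes the calcineurin substrate DARPP-32, 0.09, 0.04 and 0.03 for Vsnl1, Pcp4 and Calb1, and 0.16 and 0.01 for Pde1a and Itpka. Ppp1r1b was the only variable gene among the calcineurin targets.

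Camk2n1, which encodes an inhibitor protein of CaMKII, was called higher in the C-group (FDR 0.0261). It read 10.51, 10.54, 10.24, 10.69 and 10.29 in C1 to C5. In P1 to P5 it read 10.47, 10.37, 10.47, 10.10 and 9.80. P5 and P4 were the lowest rats and the remaining P-group rats lay within the C-group. The difference was 0.21 log2 units (standard error 0.15), and 0.10 without P5, and the call was lost without C1, C2, C4, P4 or P5 (FDR up to 0.14). In those sets, higher calls over all probe sets fell from 620 to between 61 and 409.

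Dclk1, a kinase with a domain like that of the CaM kinases, was called lower (FDR 0.0339) and was low in C1 alone, as Ppp3ca was. It read 9.42 in C1, 10.48 to 10.64 in the other C-group rats and 10.53 to 10.74 in the P-group. The difference was -0.30 (standard error 0.23) with C1 and -0.07 without it, and the call was lost without C1, C4 or any single rat of the P-group (FDR up to 0.161). Without C4 or a rat of the P-group the difference was still between -0.33 and -0.27. Lower calls over all probe sets likewise fell from 129 to between 10 and 82 without a P-group rat. Camkk2, a kinase that activates CaM kinases, differed by -0.07 and was not called.

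Among the targets and anchors of CaMKII, Homer1, a scaffold protein of the postsynaptic density, was called lower (FDR 0.0241). It read 6.62, 6.98, 7.40, 7.15 and 7.33 in C1 to C5. The values in P1 to P5 were 7.01, 7.47, 7.46, 7.43 and 7.26. C1 and C2 were the lowest rats, and the difference was -0.23 (standard error 0.16), or -0.11 without C1. The 3 rats with the lowest Homer1, C1, C2 and P1, also had the lowest excitatory neuron marker means, 8.82, 8.86 and 9.04, and the part of this in the Homer1 values was not tested. The call was lost without C2, P2, P3, P4 or P5 (FDR up to 0.141). In those sets, lower calls over all probe sets fell from 129 to between 10 and 112. Grin1, Grin2a and Crebbp, the other called genes of this list, were named by the study itself from the same arrays, so that their calls are not independent evidence. They differed by 0.15, 0.30 and 0.27. Without P2 or P3 Grin1 differed by 0.08 and 0.22, without C1 Crebbp by 0.17, and without P1 or P4 Grin2a by 0.48 and 0.14. In sets with 1 rat left out, Grin1 lost its call without P2, P5 or each single C-group rat (although it differed by 0.15 to 0.16 without C1, C2, C3 or C4), Crebbp without C1 or C2, and Grin2a without C1. Higher calls over all probe sets fell from 620 to between 61 and 500 without a C-group rat. They fell to 521 without P2 and to 323 without P5.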

How the data were processed

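Total RNA (100 ng) of the hippocampus was labeled for Affymetrix rat genome arrays, 1 array for each of 10 rats. The deposited values are log2 expression values, made by the authors with qFARMS in R, and were used as they are. The scanner files were not used here. The 57 control probe sets were left out, and 31042 were tested. Gene symbols came from the platform annotation, and the gene identifiers of all 23 probe sets were matched in RefSeq (assembly GRCr8). Coordinates and sequences are not printed, since the values name no build. The functions lmFit and eBayes of limma 3.58.1 (R 4.3.3), with p-values adjusted after Benjamini-Hochberg, gave differences, standard errors and adjusted p-values. Rank products was run in Python 3.11.15 on the 25 differences between groups, without pairing, with 100 permutations within arrays and an FDR threshold of 0.05. Both were run on simulated data with independent normal noise and the same shift in every C-group array. Single outlying rats such as C1 were not simulated. The study's methods do not state the pairing or the number of permutations. Alternatives changed the pairing, normalization, filters, statistic, variance model, random draw and arrays used.

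The genes, lists, markers and threshold of 0.01 on the SD were chosen with earlier results of these data known. Named are all 9 genes, the 3 genes of each list with the largest difference at a variable probe set, the called genes of the lists, and the 3 genes closest in pattern to each gene (at its probe set with the largest SD). For a marker gene the most variable probe set was used. Levels of different probe sets were not tested against each other. The study's methods give rats as the unit, whereas the labels give group and replicate number alone. The number of rats, 5 in each group, limits the precision, and arrays have no read depth.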

Additional observations from a re-analysis of the deposited data

Results flagged for a closer look

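In 4 of 46 groups of 5 values (23 probe sets in 2 groups), the lowest rat lay apart from the others by more than Dixon's limit for the ratio of gap to range, a test that flags about 5% of groups by chance. For Ppp3ca 1368277_at the ratio was 0.899 in the C-group, with C1 at 10.22 against a mean of 12.93 in the other 4 rats. For Camk2a 1381637_at it was 0.81 in the P-group, with P2 at 8.93 against a mean of 9.70. The other two were nearly constant probe sets, Ppp3r1 1369152_at with a ratio of 0.714 in the C-group (C2 lowest) and Camk2d 1368833_at with a ratio of 0.727 in the P-group (P4 lowest), where the lowest rat read 10.0545 and 6.58937 against means of 10.0548 and 6.58972 in the others.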

How the results depend on the processing

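With limma, 0 of the 23 probe sets passed in all 17 alternatives. Rank products called 1 lower (Ppp3ca 1368277_at) with the replicate block, both other normalizations and a second random draw, and 0 with variable probe sets alone, with the brighter probe sets (above the median level) or with rank sums; with 1 rat left out the count was 0 to 1. It called 0 higher in 16 alternatives and 1 higher, Camk2a 1389824_at (FDR 0.0237), with the replicate block. Over all probe sets rank products called 620 higher and 129 lower, 912 and 338 with the replicate block, 9 and 0 among variable probe sets, 157 and 37 among brighter ones, and 4 and 2 with rank sums. With 1 C-group rat left out it called 61 to 500 higher and 112 to 221 lower. With 1 P-group rat left out it called 323 to 789 higher and 10 to 82 lower. That block rests on shared numbers alone: deviations of same-numbered rats correlated from -0.389 to 0.485, and C2 correlated best with P1. Differences that changed sign were uncalled in the settings where they did. With 1 rat left out, those of Camk2a 1381637_at, 1389824_at and 1368935_at ranged from -0.0052 to 0.20, -0.0109 to 0.17 and -0.0070 to 0.0945, that of Camk2b 1375575_at from -0.0079 to 0.0392 and that of Camk2d 1368834_at from -0.12 to 0.15. Camk2b 1375575_at was -0.0085 with quantile normalization, and Camk2g 1369993_at was -0.0001862 with arrays centred on their median. The cause of these changes was not tested.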
